A study of Rattus norvegicus with 244 samples.

Results

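Neuropeptide precursor genes encode long proteins that neurons cut into the short peptides they release, and 10 of them were followed here across 2 regions of the rat brain: Sst, Npy, Vip, Penk, Tac1, Cck, Crh, Trh, Calca and Gal. They are 10 of 10969 genes with their own symbol on 3 types of array, called A, B and C here. Every probe set annotated to a member was taken, and the one with the highest mean signal stood for the gene. That probe set was on type A for 9 members and on type C for Vip, and the other probe sets of Sst, Vip, Penk, Tac1, Trh and Calca served as a check.

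The study followed brain regions that send axons to the spinal cord after trauma to the cord. Injured rats had moderate spinal cord injury, sham rats had the overlying bone removed (laminectomy) without injury, and naive rats had no surgery. RNA came from the raphe (24 injured, 13 sham and 4 naive samples) and from the somatomotor cortex (24 injured, 15 sham and 4 naive samples). Each region had 4 injured and 2 sham samples at 4 h, 24 h, 7 d, 14 d, 28 d and 3 months, and a few shams at 30 min or 72 h that entered no comparison with injured samples. The labels give no strain, age, sex or pooling of the rats or whether each sample is another animal, so the p-values measure only the spread between these samples, which may be technical. The tissue of injured raphe samples is labelled raphe and that of sham and naive raphe samples raphe magno, so injury and the dissection so named cannot be told apart in the raphe.

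Neuropeptide precursors enter the secretory pathway, are cleaved by prohormone convertases and trimmed by carboxypeptidases, and are stored in dense core vesicles. The released peptides act on receptors coupled to G proteins, usually more slowly and over longer distances than glutamate or GABA. In the cerebral cortex Sst, Npy, Vip and Cck mark classes of inhibitory interneurons, and Cck is also made by many excitatory neurons. In the lower brainstem, serotonin neurons of the raphe that project to the spinal cord can also make substance P from Tac1 and thyrotropin releasing hormone from Trh. Noradrenaline neurons can contain galanin and neuropeptide Y, and motor neurons the calcitonin gene-related peptide of Calca.

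The regions carried markers of their labels, in the raphe only in part. Of 7 tested serotonin neuron markers, 4 were called higher in naive raphe than in naive cortex, where 6.65% of all probe sets were. Among the 4 were the serotonin transporter Slc6a4 (log2 difference 1.13 ± 0.27, SE) and the transcription factor Fev (0.71 ± 0.20), and the rest of the 7 were not called higher. All 6 tested markers of forebrain projection neurons were lower in naive raphe, where 7.59% of all probe sets were. Their median log2 difference was -5.48, against a median of -0.0040 over all probe sets tested. Markers of other cells moved too. Against the same 6.65%, 5 of 6 oligodendrocyte, 3 of 5 cholinergic motor neuron and 3 of 5 blood cell markers were higher in naive raphe. The part of these cells in the regional results was not tested. The array total was fixed by the authors' scaling, and array medians lay between 186 and 411. Samples were set apart by limits on the low-end signal (5th percentile over 2 times the region's median), the actin ratio (over 4 times the median) and a region score (more than 0.1 from the median): 5 of the 84 stood apart. Replicate 1 of injured raphe at 4 h had a ratio of 56.2 between the 3' and 5' actin probe sets, against 1.25 to 2.60 in the other raphe samples. On a score that is near 1 in raphe and near 0 in cortex, replicate 1 of sham raphe at 3 months scored 0.0493 and replicate 1 of sham cortex at 3 months 0.654, so both go against their labels. Replicate 2 of sham cortex at 14 d scored 0.169, and this sample and replicate 2 of injured cortex at 7 d had raised low-end signals. The summed signal of 5 choroid plexus markers ran from 1282 to 60335 in injured raphe and from 1746 to 33664 in sham raphe, and its part in the results was not tested.

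The upstream sequences of 4 members are shown because these had the largest differences between the regions, in each direction, among the 7 members matched in RefSeq's promoter table of build GRCr8 (Sst, Npy, Vip, Tac1, Trh, Calca and Gal). Each is the 150 bases before the start annotated in that table, 5′ to 3′ on the gene's strand. Capitals mark the core letters TGACG of the cyclic AMP response element on either strand. The Vip window lies within the annotated gene, which begins at chr1:44470232. The Calca window overlaps the annotated gene, whose 5′ end is at chr1:178317588. Gal and Calca were higher in the raphe, Vip and Npy in the cortex. Gal lies on the minus strand, with the bases at chr1:210084573-210084722; Calca on the minus strand at chr1:178317530-178317679; Vip on the plus strand at chr1:44470330-44470479; and Npy on the plus strand at chr4:80211961-80212110.
Gal: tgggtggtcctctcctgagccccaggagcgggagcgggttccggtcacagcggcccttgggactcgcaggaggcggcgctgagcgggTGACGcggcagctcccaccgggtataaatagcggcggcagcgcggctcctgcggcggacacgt
Calca: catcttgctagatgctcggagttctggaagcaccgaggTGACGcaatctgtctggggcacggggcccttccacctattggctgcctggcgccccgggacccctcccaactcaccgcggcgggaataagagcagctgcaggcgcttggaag
Vip: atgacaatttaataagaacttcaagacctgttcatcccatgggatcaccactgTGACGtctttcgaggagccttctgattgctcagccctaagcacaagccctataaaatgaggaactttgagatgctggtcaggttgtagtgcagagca
Npy: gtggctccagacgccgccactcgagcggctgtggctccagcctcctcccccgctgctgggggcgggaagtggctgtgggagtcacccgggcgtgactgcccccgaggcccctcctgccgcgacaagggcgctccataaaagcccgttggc

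The core TGACG was present within 250 bases upstream, on either strand, in 5 of the 7 members (Vip, Tac1, Trh, Calca and Gal), against 18.2% of 33469 promoters. Within the same 250 bases the full element TGACGTCA, which contains the core, was in none of the 7 and in 1.59% of all promoters. Bases after the annotated start were not searched, so an element there would be missed, and its absence from a gene cannot be read from these windows. In Gal the core began 63 bases before the start, in Vip 97 and in Calca 112. Of the 7, the core was present in all 4 that were higher in naive raphe (Gal, Calca, Trh and Tac1). Of the 3 that were lower, it was found in the window of Vip and not in those of Npy and Sst. The Sst window ends at chr11:90461545, directly before the annotated gene start at chr11:90461546, and the bases after it were not searched. This split depends on where the windows end and was not tested, and no link between the core and the region can be read from it. The core of Tac1 lay 206 to 202 bases upstream. Gal, Calca and Vip passed the filter on low signals through 1 region alone, so their directions were fixed by it.

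With all samples used, members passed the threshold between the regions and in no comparison of treatments. Of the 10 members, 7 passed the filter on low signals in each region. In naive samples 6 of these 7 differed between raphe and cortex at an adjusted p under 0.05 in limma, 3 higher (Trh, Tac1 and Penk) and 3 lower (Cck, Npy and Sst) in the raphe, while 14.2% of all probe sets did (6.65% higher and 7.59% lower). Over the 13 groups that both regions have, all 7 did, 4 higher and 3 lower, against 26.1% of all probe sets higher, 27.0% lower and 53.1% in either direction. Vip passed the filter through the cortex alone, and Calca and Gal through the raphe alone, so these 3 had to differ and their differences are given with no test. A lower level in a piece of tissue can mean fewer cells of a type or less RNA per cell, and these cannot be told apart.

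Gal, Calca, Trh, Tac1 and Penk were the members higher in naive raphe. Gal encodes galanin, a peptide of noradrenaline and other neurons. It had a signal of 271, 570, 225 and 405 in the naive raphe samples and of 42.0, 33.2, 36.4 and 44.6 in the naive cortex samples. Every naive raphe sample was above every naive cortex sample, with a difference of 2.42 ± 0.39 on the scale of log2(signal + 32), given as a description with no test. The cortex signal of Gal stood at the 19.0th percentile of its arrays on average. It was above the 40th percentile on fewer than the 4 cortex arrays needed for a test in that region.

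Calca encodes calcitonin and the calcitonin gene-related peptide. Its signal was 353, 428, 310 and 191 in naive raphe and 9.63, 92.1, 68.9 and 25.6 in naive cortex, again without overlap. The log2 difference, also a description since the cortex signal was under the limit for a test, was 2.20 ± 0.45. Over the 13 groups the log2 difference of Calca was smaller, 1.49 ± 0.15. Its second probe set was too low to be tested in either region. Cross-hybridization with the related gene Calcb, whose own probe set was higher in naive raphe too (1.25 ± 0.30), was not tested.

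Trh encodes the precursor of thyrotropin releasing hormone. The 2 probe sets of Trh had nearly the same mean signal (555 and 548) and differ in the size of the regional step. The main one read 1227, 596, 811 and 893 in naive raphe and 289, 378, 446 and 294 in naive cortex, a log2 difference of 1.23 ± 0.27 (adjusted p = 0.000639). The other read 1485, 663, 664 and 1369 in naive raphe and 86.5, 69.9, 78.0 and 48.2 in naive cortex, a log2 difference of 3.31 ± 0.42 for Trh. Both placed Trh higher in the raphe without overlap of the naive samples.

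Tac1, the precursor of substance P and neurokinin A, had a signal of 1634, 1554, 2125 and 1276 in naive raphe and of 838, 1462, 594 and 530 in naive cortex. The groups overlapped in 1 cortex sample, and the log2 difference was 1.01 ± 0.29 (adjusted p = 0.0105), with 1.09 ± 0.33 on the second probe set of Tac1. Penk, the precursor of the enkephalins, read 2302, 1679, 1722 and 1654 in naive raphe and 1059, 1449, 873 and 939 in naive cortex, a log2 difference of 0.76 ± 0.23 (adjusted p = 0.0170). Leaving out single naive samples ended both calls: the adjusted p of Penk lay at 0.0786 without replicate 1 of naive raphe, 0.0690 without replicate 3 of naive cortex and 0.0552 without replicate 4, and that of Tac1 at 0.0533 without replicate 3 of naive raphe, 0.0533 without replicate 3 of naive cortex and 0.0706 without replicate 4. The second probe set of Penk showed no step (0.09 ± 0.26 in naive samples and -0.03 ± 0.09 over the 13 groups), and its values correlated with those of the first at r = -0.346 over 38 raphe samples and -0.297 over 38 cortex samples. So the regional difference of Penk rests on 1 of its 2 probe sets. Over the 13 groups the main probe sets gave 1.06 ± 0.10 for Tac1 and 1.15 ± 0.08 for Penk.

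Crh encodes corticotropin releasing hormone. It read 338, 186, 162 and 294 in naive raphe and 175, 60.9, 151 and 135 in naive cortex. The log2 difference of Crh was 0.78 ± 0.35 in naive samples, where it missed the threshold (adjusted p = 0.145), and 0.35 ± 0.12 over the 13 groups, where it passed (adjusted p = 0.0121).

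Cck showed the widest step of the 10 members. It encodes cholecystokinin, and its signal was 292, 407, 182 and 109 in naive raphe against 15958, 15046, 13610 and 13610 in naive cortex. Cck differed by -5.83 ± 0.33 on the log2 scale in naive samples (adjusted p = 7.98e-22) and -5.93 ± 0.11 over the 13 groups. In the raphe the probe set stood at the 43.7th percentile of its arrays on average, and in the cortex at the 98.2nd.

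Vip, the precursor of vasoactive intestinal peptide, read 134, 59.9 and 22.6 in the 3 naive raphe samples on type C and 842, 965, 947 and 794 in naive cortex. Vip differed by -3.28 ± 0.43 on the log2 scale in naive samples, a description with no test, as the raphe signal was under the limit. The second probe set of Vip gave -1.93 ± 0.29. Npy read 1161, 811, 1278 and 1140 in naive raphe and 1813, 2232, 2320 and 1877 in naive cortex, and the log2 difference of Npy was -0.90 ± 0.25 (adjusted p = 0.00850). Without replicate 2 of naive raphe the adjusted p of Npy was 0.0542. Sst, the precursor of somatostatin, read 4214, 4560, 7078 and 5624 in naive raphe and 9576, 10425, 9407 and 9879 in naive cortex, a log2 difference of -0.90 ± 0.19 (adjusted p = 0.000350). The second probe set of Sst gave -0.64 ± 0.29 in naive samples, short of the threshold (adjusted p = 0.153), and -0.63 ± 0.10 over the 13 groups (adjusted p = 2.25e-07). The signals of Npy and Sst in naive samples did not overlap between the regions.

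**Figure D1:**
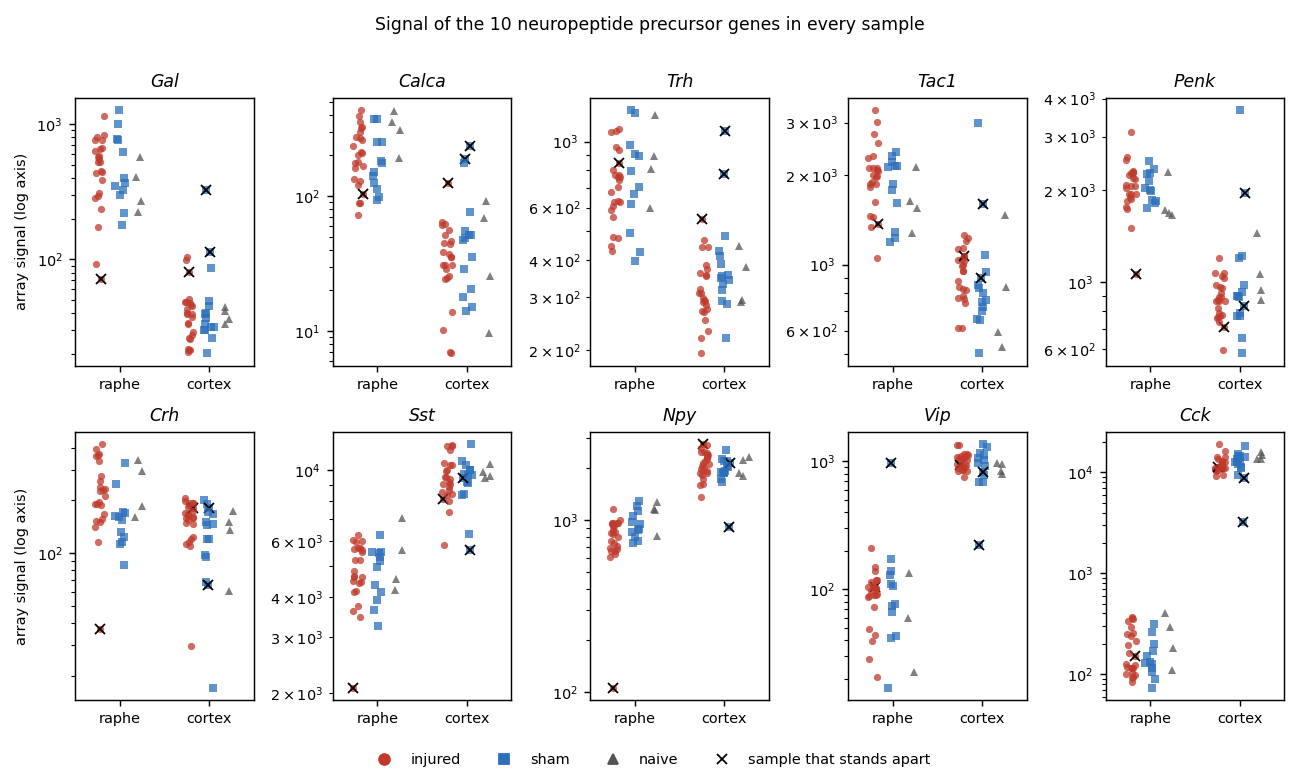
Array signal (log axis) of the 10 members in every sample, raphe left of cortex and, within each region, injured (red circles), sham (blue squares) and naive samples (grey triangles). Crosses mark samples that stand apart; the signal of Cck was 73.5 to 407 in the raphe and 3190 to 19041 in the cortex, and the lowest cortex value belongs to a sample that stands apart.

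Over all samples, naive ones included, the ranges of the regions overlapped for 9 of the 10 members, all but Cck. The share of all probe sets with such overlap was not counted, so this count is only a description. Penk ran from 1062 to 3102 in the raphe (median 2033) and from 581 to 3666 in the cortex (median 892), Tac1 from 1048 to 3304 (median 1981) and from 502 to 2999 (median 855), and Crh from 36.7 to 419 (median 189) and from 17.1 to 207 (median 154). Gal ran from 71.1 to 1261 over 40 raphe samples with a median of 444, and from 20.2 to 324 over 43 cortex samples with a median of 39.5. Vip ran from 17.1 to 976 in 39 raphe samples (median 96.3) and from 224 to 1365 in 41 cortex samples (median 960). Without the samples that stand apart Vip did not overlap between the regions, and of Gal 1 raphe sample (92.7, injured at 3 months) lay below the highest cortex sample (104, injured at 4 h). Replicate 1 of sham cortex at 3 months, the sample with the mixed score, had the lowest cortex signals of Cck (3190) and Vip (224) and the highest of Gal (324) and Calca (237). Replicate 1 of sham raphe at 3 months, which scored as cortex, had a Vip signal of 976, against at most 211 in every other raphe sample. Leaving out the samples that stand apart changed no member's call or direction between the regions.

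**Figure D2:**
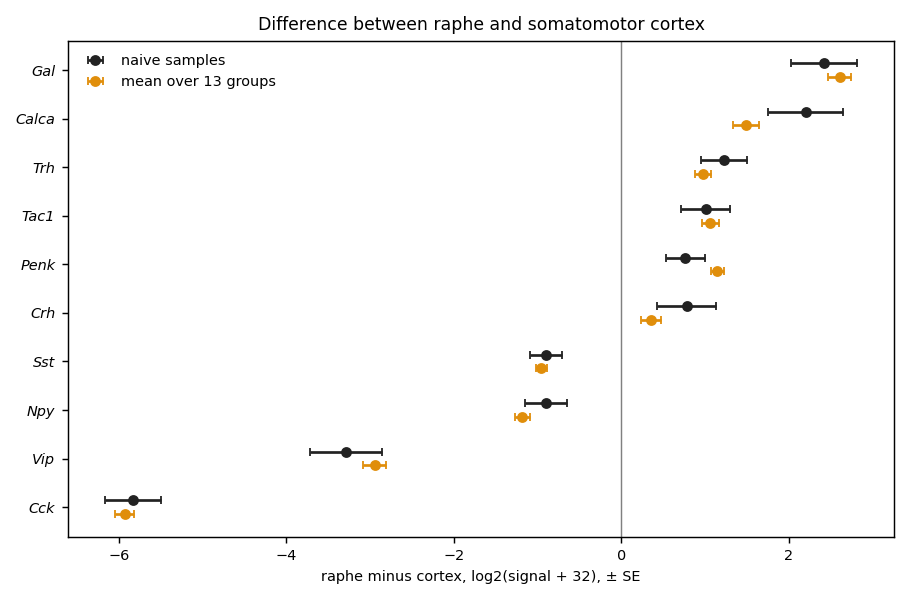
Raphe minus cortex difference in log2(signal + 32) for each member, with bars of 1 SE, in naive samples (black) and as the mean over the 13 groups both regions have (orange). Members above Sst lie to the right of 0 (higher in raphe) and Sst, Npy, Vip and Cck to the left, with Cck at -5.83 in naive samples; Gal, Calca and Vip were under the limit for a test in 1 region.

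The genes that process or receive these peptides were compared between the regions in the same fit. Of 11 tested genes of peptide processing and dense core vesicles, 2 were higher and 2 lower in naive raphe, where 14.2% of all probe sets were called, with a median log2 difference of -0.34 against -0.0040 over all probe sets. The secretogranin gene Scg2 (1.07 ± 0.32) and the carboxypeptidase gene Cpd (0.96 ± 0.23) were higher, and the convertase gene Pcsk2 (-1.34 ± 0.25) and the carboxypeptidase gene Cpe (-0.67 ± 0.19) were lower. Of 20 tested receptor genes and receptor partners, 3 were higher and 3 lower. The substance P receptor gene Tacr1 (0.94 ± 0.21) and Ramp2 (0.64 ± 0.14), a partner of calcitonin-type receptors, were higher in naive raphe. The cholecystokinin receptor gene Cckbr (-1.05 ± 0.24) and the somatostatin receptor gene Sstr2 (-0.76 ± 0.23) were lower there. Of 18 other precursor genes 4 were higher and 1 lower, with Cartpt (2.03 ± 0.37), which encodes the CART peptides, highest by p among the 4, followed by Nppc (0.87 ± 0.21) and Calcb; Tac3 (-2.56 ± 0.37), the precursor of neurokinin B, was the lower one. Over the 13 groups the counts were 4 higher and 6 lower of 11 processing genes, 5 and 10 of 20 receptor genes, and 10 and 4 of 18 other precursors, where 53.1% of all probe sets were called.

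Spinal cord injury changed no member past the threshold in the raphe when all samples were used. Of 9 tested members (all but Vip) none passed in injured minus sham over the 6 times, where 0.946% of probe sets did and 1 member, Crh, had an unadjusted p under 0.05. None passed at a single time either, where the percentage of all probe sets called was 0.15 at 4 h, 0.00534 at 24 h, 0.801 at 7 d, 0.0374 at 14 d, 0 at 28 d and 0.614 at 3 months. Over the 6 times the 9 differences ran from -0.25 for Npy to 0.47 for Crh, with a median of 0.04 against a median of -0.0010 over all probe sets.

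The sample with the high actin ratio, replicate 1 of injured raphe at 4 h, moved several calls. Without it alone 1 member passed at a single time, and the adjusted p was 0.0381 for Crh over the 6 times, 0.0370 for Npy against naive and 0.0239 for the time course of Gal. It had the lowest raphe signal of Npy (106), Crh (36.7), Sst (2085) and Gal (71.1). Without the samples that stand apart, 1 member each passed in injured minus sham over the 6 times (Crh), at 7 d (Crh), in injured minus naive (Npy) and in the time course of injured samples (Gal), where 4.73%, 4.71%, 11.2% and 4.40% of all probe sets passed.

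Crh has no second probe set as a check. Its probe set stood at the 47.2nd percentile of the raphe arrays and the 37.7th of the cortex arrays on average, so its signal is weak. It read 357, 192, 230 and 367 in injured raphe at 7 d and 86.1 and 113 in sham raphe at 7 d, without overlap. The log2 difference of Crh at 7 d was 1.24 ± 0.43 with all samples (2.36-fold, adjusted p = 0.178) and 1.24 ± 0.36 without the samples that stand apart (adjusted p = 0.0445). At 24 h it read 363, 152, 419 and 212 in injured raphe and 116 and 170 in sham raphe, with 1 injured sample inside the sham range. Over the 6 times Crh ran from 36.7 to 419 in 24 injured samples with a median of 220, and from 86.1 to 248 in 11 sham samples with a median of 155. The log2 difference over the 6 times was 0.47 ± 0.19 with all samples (adjusted p = 0.210) and 0.54 ± 0.16 without those that stand apart (adjusted p = 0.0442). Of 9 alternative settings, that one among them, 2 passed. The lowest difference, 0.33 ± 0.21 (adjusted p = 0.535 in limma), came with the replicate number added to the model. Naive raphe samples of Crh lay at 162 to 338. Injured minus naive was -0.12 ± 0.27 (adjusted p = 0.885) and sham minus naive -0.59 ± 0.29 (adjusted p = 0.356), so neither passed.

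Gal had the widest time course of the members in injured raphe. It read 71.1, 663, 524 and 524 at 4 h, 828, 1136, 435 and 802 at 24 h, 756, 547, 631 and 651 at 7 d, 441, 572, 755 and 448 at 14 d, 285, 234, 291 and 574 at 28 d, and 172, 385, 307 and 92.7 at 3 months. The signal of Gal was thus highest at 24 h and lowest at 3 months, and the groups at 24 h and 3 months did not overlap, while neighbouring times did. The widest gap between the group means of Gal was 1.69 on the log2 scale, with an adjusted p of 0.139 in limma's F test over all samples and of 0.0214 without the samples that stand apart. Among all 9 tested members none passed that F test with all samples (0.486% of probe sets did), and Sst and Gal had an unadjusted p under 0.05.

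Sham samples of Gal were high at the same early times. They read 620 and 997 at 4 h and 770 and 1261 at 24 h, against 219 and 368 at 7 d, 180 and 397 at 14 d, 327 and 756 at 28 d and 350 at 3 months, and naive samples read 225 to 570. Injured minus sham for Gal was -1.09 ± 0.55 at 4 h (-0.45 ± 0.45 without the samples that stand apart, injured replicate 1 among them) and -0.36 ± 0.55 at 24 h, and 1.09 ± 0.55 at 7 d and 0.93 ± 0.55 at 14 d, none past the threshold. The summed signal of 3 noradrenaline neuron markers on type A (Dbh, Th and Phox2a) lay between 941 and 2667 in injured raphe at 24 h, 2248 and 2413 at 7 d and 1016 and 1914 at 3 months. In sham raphe it lay between 2546 and 3492 at 4 h and between 2477 and 4943 at 24 h, against 1632 to 2055 in naive raphe. This sum was high in the early sham samples that were high in Gal; its part in the time course was not tested.

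Npy encodes neuropeptide Y. At 4 h it read 106, 686, 682 and 838 in injured raphe and 1291 and 1206 in sham raphe, so all 4 injured samples lay below both shams. The log2 difference of Npy at 4 h was -1.36 ± 0.39 with all samples (adjusted p = 0.152) and -0.74 ± 0.20 without the samples that stand apart, replicate 1 among them (adjusted p = 0.0780). Without replicate 4 of injured raphe at 4 h the adjusted p was 0.0470. From 24 h on, injured minus sham for Npy lay between -0.23 and 0.45. Over all times Npy ran from 106 to 1164 in 24 injured raphe samples with a median of 832, and from 811 to 1278 in 4 naive samples. Injured minus naive was -0.50 ± 0.25 with all samples (adjusted p = 0.302) and -0.39 ± 0.12 without the samples that stand apart (0.762-fold, adjusted p = 0.0349). The sum of 4 blood cell markers was 9483 to 22660 in injured raphe and 22245 to 25204 in naive raphe, and the part of blood in this difference was not tested.

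**Figure D3:**
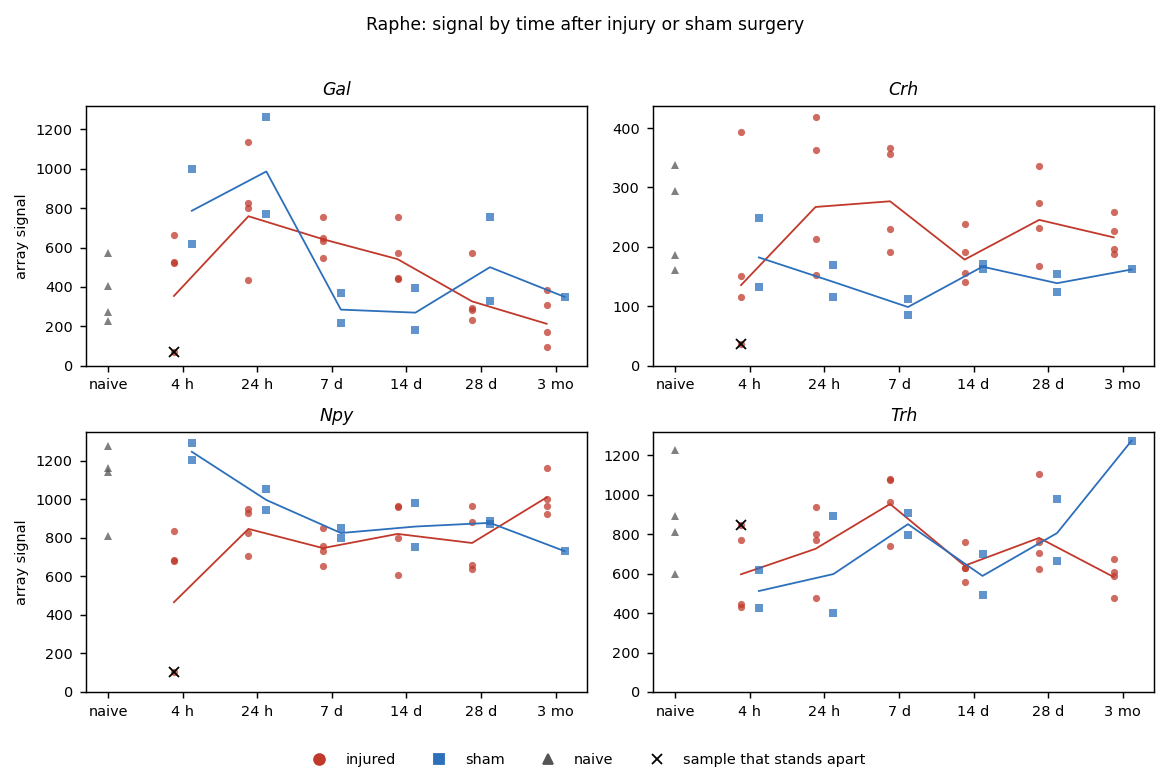
Array signal of Gal, Crh, Npy and Trh in the raphe by time, naive samples at the left end, injured samples in red and sham samples in blue, with lines through the means on the log2(signal + 32) scale. Gal stands highest at 24 h in both treatments, and the cross at 4 h marks injured replicate 1, which was lowest for Gal (71.1), Crh (36.7) and Npy (106).

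The other members of the raphe showed no change past the threshold with or without the samples that stand apart. Trh read 590, 675, 476 and 610 in injured raphe at 3 months and 1275 in the only sham sample there, a log2 difference of -1.09 ± 0.39 without the samples that stand apart (adjusted p = 0.281). Cck read 115, 124, 99.7 and 115 in injured raphe at 3 months against 315 in the same sham sample (-1.26 ± 0.60, adjusted p = 0.491). Both of these differences rest on 1 sham sample, whose 5 choroid plexus markers summed to 32489. Sst read 6013, 4438, 6030 and 5600 in injured raphe at 7 d and 3649 and 3244 in sham raphe at 7 d. Sst at 7 d differed by 0.67 ± 0.21 without the samples that stand apart (adjusted p = 0.0628). Penk and Tac1 differed by -0.01 ± 0.10 and 0.14 ± 0.15 over the 6 times.

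Surgery alone gave no call among the members in the raphe. Of 9 members none passed in sham minus naive, where 1.35% of all probe sets did, and 1, Calca, had an unadjusted p under 0.05. Calca ran from 93.0 to 370 in 11 sham samples with a median of 150, and read 191 to 428 in 4 naive samples. The log2 difference of Calca was -0.85 ± 0.35 (adjusted p = 0.233). The sum of 5 cholinergic motor neuron markers was 6377 to 8625 in the sham and 7256 to 9041 in the naive samples, and their part in this difference was not tested. Among them the vesicular acetylcholine transporter gene Slc18a3, differed by -0.68 ± 0.21 (adjusted p = 0.0999), and by -0.68 ± 0.20 without the samples that stand apart (adjusted p = 0.0377). In injured minus naive 3.05% of all probe sets passed, and with all samples no member did and none had an unadjusted p under 0.05.

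In the somatomotor cortex 8 members could be tested, Calca and Gal being too low there. None passed in injured minus sham over the 6 times, against 0.133% of all probe sets; Npy (0.20 ± 0.08, adjusted p = 0.302) and Trh (-0.29 ± 0.14, adjusted p = 0.425) had an unadjusted p under 0.05. Without the samples that stand apart Npy was 0.13 ± 0.08, Trh -0.10 ± 0.12, and no member had an unadjusted p under 0.05. None passed at a single time, where the percentage of all probe sets called was 0.016 at 4 h, 0.0426 at 24 h, 0.368 at 7 d, 1.81 at 14 d, 0 at 28 d and 2.47 at 3 months. Over the 6 times the 8 differences ran from -0.29 to 0.24, with a median of 0.14 against -0.0026 over all probe sets, and the members' median was 0.0350 without the samples that stand apart.

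Cck read 11166, 10864, 11032 and 11234 in injured cortex at 4 h and 12690 and 12207 in sham cortex, and 11038, 10983, 12616 and 11928 in injured cortex at 3 months. All 4 injured samples lay below both shams at 4 h. Over the 6 times Cck ran from 9143 to 19041 in 24 injured samples with a median of 11306, and read 13610 to 15958 in 4 naive samples. The difference of Cck from naive was -0.28 ± 0.20 (adjusted p = 0.492). The injured and naive samples of Cck overlapped.

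Npy read 2391, 2766, 2194 and 2489 in injured cortex at 7 d and 1897 and 1877 in sham cortex at 7 d, and 1987, 2488, 2750 and 2616 in injured cortex at 14 d and 1932 and 2160 in sham cortex at 14 d. All injured samples lay above both shams at 7 d, and 1 lay between the shams at 14 d. At 3 months Npy read 1830, 1878, 1627 and 1368 in injured cortex. The injured samples at 3 months were all below those at 7 d, and the widest gap between times in injured cortex was 0.55 for Npy, with an adjusted p of 0.197 in the F test. None of the 8 members passed that F test, which 1.10% of all probe sets did, and Npy alone had an unadjusted p under 0.05.

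At 3 months 4 cortex members had an unadjusted p under 0.05 in injured minus sham: Vip, Penk, Cck and Trh. These values rest on the sham sample with the mixed region score. Vip read 890, 846, 912 and 1089 in injured cortex and 224 and 1133 in sham cortex at 3 months. With both shams the log2 difference of Vip was 0.82 ± 0.31, and without replicate 1 of the shams it was -0.28. For Cck the difference was 0.76 ± 0.32 with both shams and -0.33 without that sample. Trh showed the same kind of dependence at 14 d, where it read 194 to 320 in injured cortex and 284 and 1088 in sham cortex, the higher value in replicate 2, which has raised low-end signals.

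**Figure D4:**
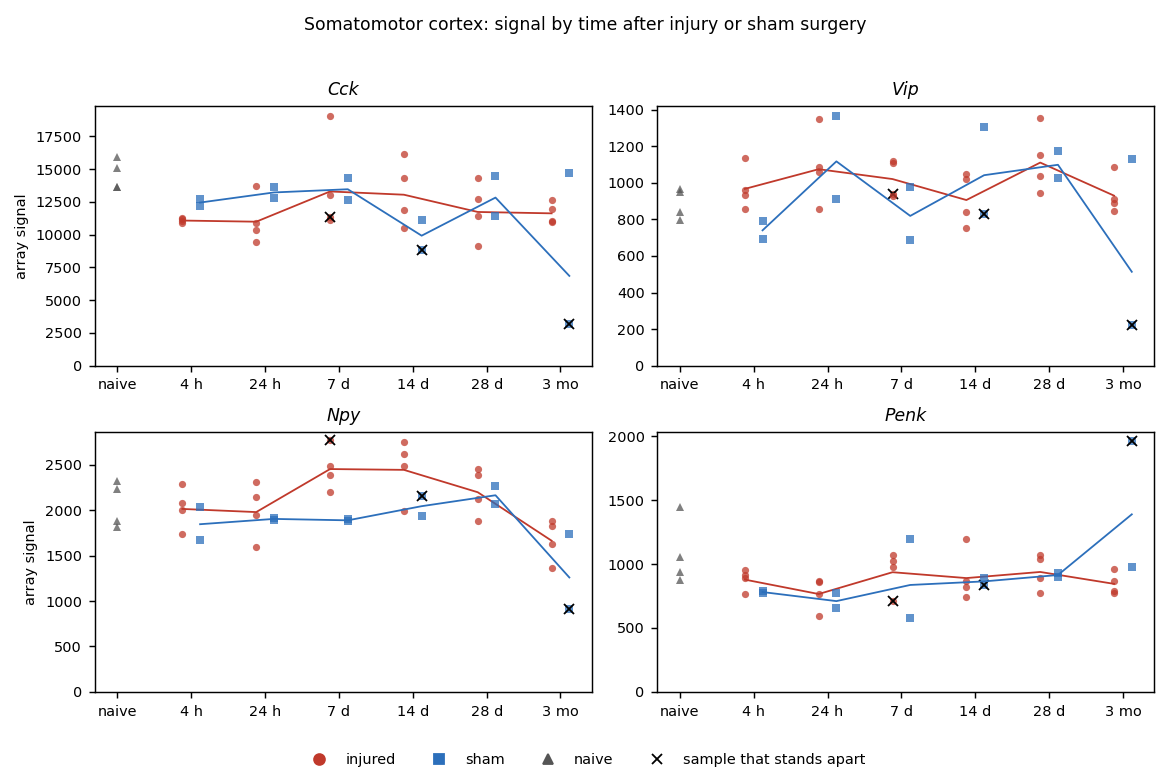
Array signal of Cck, Vip, Npy and Penk in the somatomotor cortex by time, naive samples at the left end, injured samples in red and sham samples in blue, with lines through the means on the log2(signal + 32) scale. The cross at 3 months marks sham replicate 1, whose Cck (3190) and Vip (224) lie below and whose Penk (1963) lies above the other samples at that time.

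The 2 probe sets of Vip differed in the cortex after injury. On the main probe set, on type C, Vip ran from 751 to 1353 in 24 injured samples and from 794 to 965 in 4 naive samples, and injured minus naive was 0.17 ± 0.19 (adjusted p = 0.712). On the second, on type A, Vip ran from 236 to 574 in the injured samples, all above the 161 to 231 of the 4 naive samples. There the log2 difference was 0.77 ± 0.16 (1.70-fold, adjusted p = 0.0105), and sham minus naive was 0.39 ± 0.17 (adjusted p = 0.297). The values of the 2 probe sets correlated at r = 0.336 over 38 cortex samples. For the main probe sets none of 8 members passed in injured minus naive, which 2.00% of all probe sets did, or in sham minus naive, which 0.490% did, and in both none had an unadjusted p under 0.05.

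The effect of injury over the 6 times was compared between the regions. Of the 7 members that passed the filter in each region none differed past the threshold, as 0.0206% of all probe sets did. Npy alone of these 7 had an unadjusted p under 0.05. Vip was under the filter in the raphe, and Calca and Gal in the cortex, so differences of these 3 are descriptions with no test. For Npy the raphe effect (-0.25 ± 0.17) minus the cortex effect (0.20 ± 0.08) was -0.46 ± 0.18 with an adjusted p of 0.462. Without the samples that stand apart it was -0.28 ± 0.11 for Npy (adjusted p = 0.420), and Calca moved to 0.39 ± 0.31, against 0.66 ± 0.33 with them.

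The pathway lists also held few calls after injury, as did all probe sets. None of 11 processing genes, 18 receptor genes and 18 other precursors passed in any raphe comparison with all samples, where 0 to 3.05% of all probe sets did. In cortex injured minus sham 1.81% of all probe sets were called at 14 d and 2.47% at 3 months. At 14 d the receptor gene Npy1r (-1.22, adjusted p = 0.0458) and the vasopressin precursor gene Avp (-1.13, adjusted p = 0.0458) were lower in injured than in sham cortex. Nmb, the precursor of neuromedin B, was higher at 3 months (1.65, adjusted p = 0.00524). Without the samples that stand apart these adjusted p-values were 0.978 for Npy1r, 0.996 for Avp and 0.248 for Nmb.

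The members varied unequally within groups. In the raphe the pooled SD of log2 values within the injured and naive groups, without the samples that stand apart, was 0.62 for Calca, 0.61 for Cck and 0.50 for Gal, above the median of 0.30 over all probe sets tested, and 0.18 for Penk, 0.23 for Npy and 0.24 for Sst. In the cortex it was 0.19 for Npy and Vip, 0.20 for Sst and 0.22 for Cck and Penk, against a median of 0.31, and 0.42 for Crh.

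Across raphe samples, the genes most like each member were found among 3073 genes on the same array type, by Pearson's r of log2 values over 39 samples without those that stand apart. These are descriptions of samples that share a dissection, and no p is given. Gal was most like Th (r = 0.701, Spearman's rho = 0.736) and Dbh (r = 0.626), the enzymes that make dopamine precursor and noradrenaline. Within the 23 injured samples r of Gal and Th was 0.731, within the 16 sham and naive samples 0.754, and without the 2 samples farthest from the median of Gal 0.646. Calca was most like Slc18a3 (r = 0.760, rho = 0.795), the vesicular acetylcholine transporter of motor neurons and other cholinergic neurons, with r = 0.725 without the 2 farthest samples. Crh was most like Calb1 (r = 0.685), which encodes calbindin, and the serotonin receptor gene Htr5b (0.683), and Trh was most like Htr5b (0.682). Cartpt was also among the 3 closest genes of both Crh and Trh. Penk and Tac1 were each other's closest gene (r = 0.556 over 39 samples, and 0.450 without the 2 samples farthest from the median of Penk). Npy was most like S100a1 (r = 0.755).

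**Figure D5:**
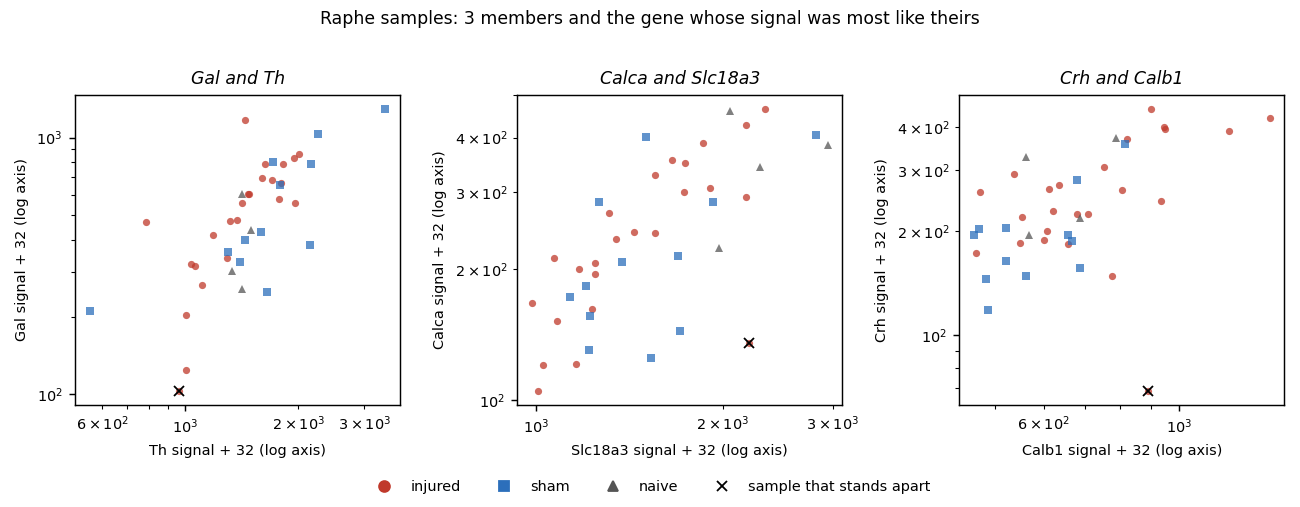
Signal plus 32 (log axes) of Gal against Th, Calca against Slc18a3 and Crh against Calb1 in each raphe sample, injured (red circles), sham (blue squares) and naive (grey triangles). The points rise together (r = 0.701, 0.760 and 0.685 over 39 samples), and the cross, injured replicate 1 at 4 h, was left out of r.

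In injured minus sham over the 6 times, Calb1 differed by 0.40 ± 0.11 with all samples (adjusted p = 0.0683) and by 0.40 ± 0.11 without those that stand apart (adjusted p = 0.0322). The other genes most like Crh did not pass: Htr5b differed by 0.43 ± 0.29 (adjusted p = 0.509) and Cartpt by 0.14 ± 0.14 (adjusted p = 0.697). Slc18a3 differed between injured and naive raphe by -0.65 ± 0.19 with all samples (adjusted p = 0.0602) and by -0.68 ± 0.18 without the samples that stand apart (adjusted p = 0.0149), where Calca differed by -0.54 ± 0.32 (adjusted p = 0.291). Th differed by -0.31 ± 0.15 between injured and sham raphe (adjusted p = 0.309).

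Across cortex samples the closest genes were found among 3025 genes on type A over 40 samples and, for Vip, among 3134 on type C over 38. Cck was most like Rpl7a (r = 0.722), Npy like Aco1 (0.731), Trh like Rhd (0.699), Crh like Myh11 (0.695), Sst like Plcg1 (0.653) and Vip like Btbd10 (0.652). The r of Crh and Myh11 fell to 0.372 without the 2 samples farthest from the median of Crh. Penk and Tac1 were both most like Drd1 (r = 0.632 and 0.661), the dopamine receptor gene of striatal neurons. For Penk that likeness rests on few samples: without the 2 samples farthest from its median r was 0.078, and Spearman's rho was 0.088. For Tac1 r with Drd1 fell to 0.308 without its 2 farthest samples, while rho was 0.499. Within the 23 injured samples r with Drd1 was 0.396 for Tac1 and 0.076 for Penk. Replicate 2 of sham cortex at 30 min held the highest cortex signals of Penk (3666), Tac1 (2999) and Drd1 (762), and the sum of 4 striatal neuron markers there was 2441, against 381 to 1168 in the injured, naive and 6-time sham samples of the cortex.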

How the data were processed

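The 84 samples of raphe or somatomotor cortex RNA were hybridized to 244 arrays and grouped by the region, treatment and time in titles and descriptions. Each deposited file gives a linear intensity for every probe set. The values show that the authors scaled each array to a common level, since the 2% trimmed mean lay between 800.5 and 801.3 on all of them. Their software is not given among the sources used. That scaling was kept, 32 was added and log2 taken, which draws differences of weak genes towards 0. Probe sets above the 40th percentile of their array on at least 4 arrays of a region were tested (18716 in raphe, 18769 in cortex, 19453 in the fit of both). A model of group means was fitted by limma (version 3.58.1, R 4.3.3) per array type and region, or over both regions for regional differences, with Benjamini-Hochberg adjustment over the 3 types together and a threshold of 0.05. The code was tested on simulated data.

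Of 26202 probe sets, 18178 matched 1 gene symbol in the platform annotation, 391 several and 7633 none. Named genes are the 10 members, up to 4 genes of each pathway list and comparison past the threshold with the smallest p, and the 3 genes of highest r with each member. Members and lists were chosen with earlier results of these data known. Promoter sequences and positions are RefSeq's, build GRCr8. Where a title and a description gave different times (injured cortex at 24 h, replicates 1 and 2 on type A, whose descriptions say 4 h, and the raphe sham at 30 min), the title was followed. Depth has no counterpart on arrays; precision is set by how many arrays a group has, here 2 shams a time (1 in the raphe at 3 months on type A). The alternatives were quantile normalization, other filters and added constants, array weights, a replicate block, adjustment within array types, other probe sets, naive in place of sham, and leaving out samples.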

Additional observations from a re-analysis of the deposited data

Results flagged for a closer look

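Samples far from the rest of their group were looked for in 119 combinations of a member and a group of 4 samples; chance marks about 1 in 20 such groups. In 7 of them 1 sample stood out, and 4 of these concern replicate 1 of injured raphe at 4 h, the sample with the high actin ratio. Npy read 106 there, against 682 to 838 in the other 3 samples, Penk 1062 against 2040 to 2308, Tac1 1364 against 1972 to 2070, and Gal 71.1 against 524 to 663. The others were Penk in replicate 1 of naive raphe (2302 against 1654 to 1722), Tac1 in replicate 4 of injured raphe at 28 d (2565 against 2105 to 2115) and Cck in replicate 2 of injured raphe at 7 d (93.4 against 253 to 294).

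Shams at 30 min and 72 h entered no comparison with injured samples, and some of their values lay above all naive samples of the region. In the cortex sham sample at 72 h Sst read 12038 (9407 to 10425 in naive samples), Npy 2553 (1813 to 2320), Vip 1065 (794 to 965) and Cck 18255 (13610 to 15958). In the raphe sham sample at 30 min Tac1 read 2130 (1276 to 2125) and Trh 1244 (596 to 1227). These are 1 sample each, and no difference was tested.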

How the results depend on the processing

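With all samples, the 10 members gave 9 calls between naive raphe and naive cortex, 10 over the 13 groups (3 of each had to differ, being under the filter in 1 region) and 0 in each other comparison; of 139 such counts recomputed under another setting, 131 moved by no more than 1.5 times. Array weights gave 1 call each in raphe injured minus sham over 6 times, raphe injured minus sham at each time and the raphe time course, and leaving out the samples that stand apart gave 1 each in these and in raphe injured minus naive. The other probe set of a member gave 1 call in cortex injured minus naive. Leaving out 1 sample at a time gave 7 to 9 calls between the naive regions, 10 over the 13 groups, 0 to 1 in raphe injured minus sham over 6 times, at each time, in raphe injured minus naive and in the raphe time course, 0 to 2 in cortex injured minus sham over 6 times and 0 to 3 at each time. The cortex calls appeared without replicate 2 of the shams at 3 months, which leaves the sham with the mixed score alone (Vip 1.91, Cck 1.85 and Npy 0.85 at 3 months), and without replicate 1 of the shams at 14 d (Trh -1.87); a lone sample is then taken to vary as other groups do. Replicate 2 of the raphe shams at 3 months could not be left out, as it is the only one on type A.

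Some member differences changed sign. Without the samples that stand apart, in cortex injured minus sham, Vip was -0.0184 over 6 times, and at 3 months Npy was -0.0618, Vip -0.28 and Cck -0.33, the same as without replicate 1 of the shams at 3 months. On their other probe sets Penk was -0.0304 between regions over the 13 groups and 0.54 in the cortex at 3 months, and Sst -0.0480 in the cortex at 4 h. Pairing by replicate number was checked only between times within a region, on type A arrays of injured samples. Deviations of samples of equal number correlated at a median r of 0.025 in the raphe and 0.060 in the cortex. Samples of other numbers gave -0.012 and -0.015, and 10 and 18 of 60 pairs of equal number were over 0.1. Pairs of raphe and cortex samples of equal number were not checked, and the fit of both regions took them as independent. A replicate block gave 9 calls between naive regions, 10 over the 13 groups and 0 elsewhere among the members, and moved the count over all probe sets in raphe injured minus sham to 39 from 177. Signals under the filter limit the tests of Vip in the raphe and of Calca and Gal in the cortex, and 2 shams a time limit all comparisons at single times.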
